A study of Mus musculus with 9 samples.

Results

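The matrix metalloproteinases (Mmp genes), their tissue inhibitors (Timp genes) and the ADAMTS and ADAMTS-like proteins were followed through the cell types found in cultures of mouse embryonic fibroblasts (MEFs) on their way to induced neurons. Members were taken by symbol from the day 4 gene tables (Mmp, Timp, Adamts or Adamtsl followed by a number) and had to be present in all 9 libraries. This gave 50 of the 30406 genes that the libraries share: 4 TIMPs, 22 MMPs, 19 ADAMTS proteases and 5 ADAMTS-like genes. MEFs that were wild type (WT), lacked the clock gene Per1 (Per1-/-) or lacked its relative Per2 (Per2-/-) were all transduced with lentivirus carrying the same set of neuron-inducing transcription factors and were profiled by single-cell RNA sequencing on days 4, 7 and 10. Each genotype and day has 1 library, the MEFs were pooled from several embryos, and no untransduced culture is among the 9. Below, values for several libraries follow the order WT, Per1-/-, Per2-/-.

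MMPs are zinc-dependent enzymes that are made as inactive precursors and cut collagens, gelatin, proteoglycans and other matrix proteins, either after secretion or, for the membrane-type members, at the cell surface. TIMPs bind the active site of these enzymes and block it. ADAMTS proteases are secreted enzymes that cleave the large proteoglycans, trim procollagens or bind microfibrils, and ADAMTS-like proteins share their ancillary domains but lack the protease. In connective tissue, fibroblasts are a main source of these proteins, and macrophages are known for an elastase and a gelatinase of their own.

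The 9 libraries held 6885 to 13309 barcodes and 126625215 to 353198559 unique molecular identifiers (UMIs), and 5620 to 10514 cells per library were kept, with a median of 14181 to 27215 UMIs per kept cell. Pairs of libraries shared 11 to 38 barcodes over the 36 pairs. WT day 10 stood apart, with 55.4% of its barcodes past the limits on UMIs and mitochondrial reads, against 86.1% to 94.5% elsewhere. Clusters were named from marker genes, with the members left out of the clustering, and 65470 of 73547 cells fell into 7 classes: 42421 fibroblast-like, 9596 neuron-like, 6490 macrophage-like, 3029 skeletal muscle-like, 2517 Schwann-like, 992 astrocyte-like and 425 mesothelial-like cells. All libraries are labelled as induced neurons, but most of their cells fell outside the neuron-like class. In WT day 10, 1363 of 5620 kept cells (24.25%) lay in cluster 17. It met the marker rule for neuron-like cells but stayed unnamed, because over 90% of its cells came from 1 library. The neuron-like values of WT day 10 rest on 183 cells. The 3′ tags do not check the deletions: Per1 was read at 9.11 to 10.3 CPM (UMIs of a gene scaled to a fixed total per library) in Per1-/- libraries against 6.31 to 7.85 in the others, and Per2 at 4.99 to 6.40 CPM in Per2-/- libraries against 2.56 to 3.16. The makeup by sex was also uneven, since Xist, the X-inactivation RNA of female cells, was read at 0.0679 and 0.0598 CPM in Per1-/- days 7 and 10 and at 345 to 991 CPM in the other 7 libraries.

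Levels are CPM of the UMIs summed over the cells of a class in a library. Each UMI stands for 1 tagged transcript, so values were not divided by gene length. Medians and fits used sums of at least 50 cells. For mesothelial-like cells these were all days of Per1-/- and day 4 of Per2-/-, with none of WT. Of the 50 members, 21 reached a median of 20 CPM or more in at least 1 class, 20 peaked between 1 and 20 CPM, and 9 stayed under 1 CPM everywhere, among them Mmp20, the enamel protease, with 0 UMIs in all cells. The 15 members at 20 CPM or more in fibroblast-like cells compare with 14 in mesothelial-like, 13 in astrocyte-like, 12 in Schwann-like, 11 in skeletal muscle-like, 6 in neuron-like and 2 in macrophage-like cells. Summed over the 19 ADAMTS genes, the median was 648 CPM in fibroblast-like cells (582 to 872 over 9 libraries) and 26.8 CPM in macrophage-like cells (13.1 to 44.8). The 22 MMPs summed to 831 CPM in fibroblast-like cells (672 to 971), 849 CPM in Schwann-like cells and 94.3 CPM in macrophage-like cells (63.9 to 111). For the TIMPs the gap was narrower, at 1243 CPM in fibroblast-like cells (1009 to 1448) and 804 CPM in macrophage-like cells (673 to 906), because Timp2 was high in both.

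**Figure D1:**
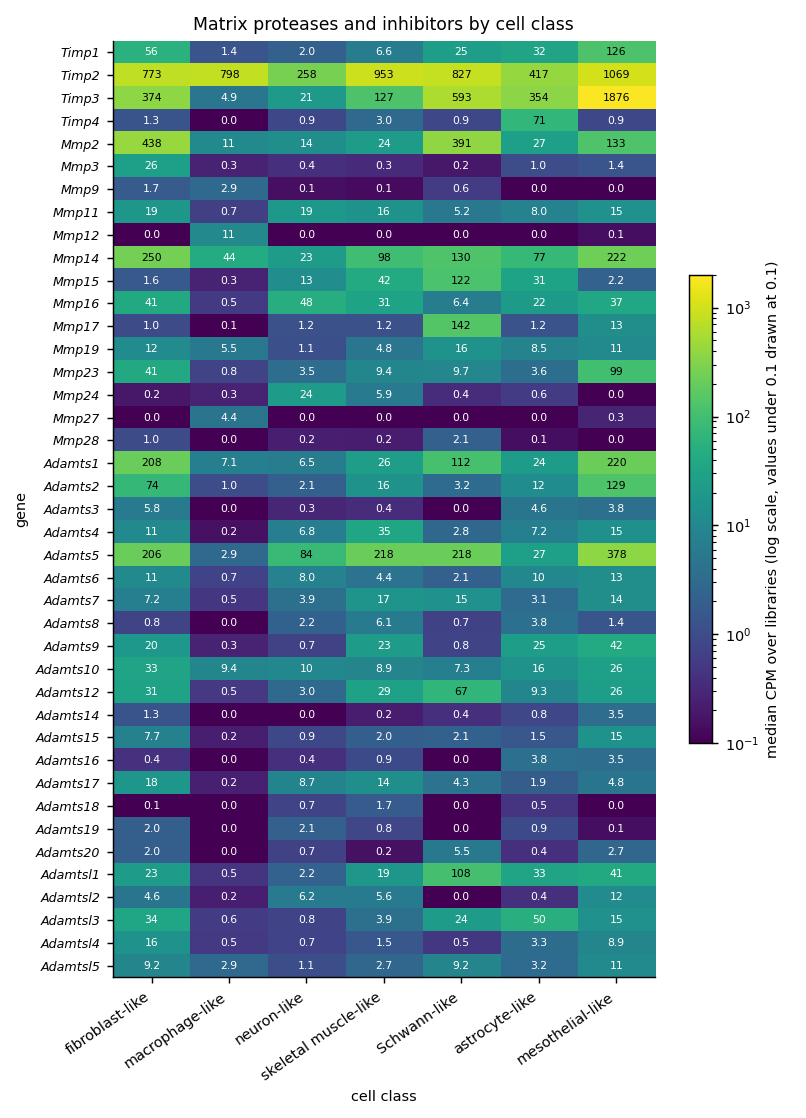
Median CPM over libraries (numbers and colour, log scale) of the members that reached 1 CPM in at least 1 class, by cell class; fibroblast-like, macrophage-like, neuron-like, skeletal muscle-like and Schwann-like columns rest on 9 libraries, astrocyte-like on 8 and mesothelial-like on 4. The macrophage-like column is dark but for Timp2 (798 CPM) and Mmp14 (44.1 CPM), while Timp4 stands out in the astrocyte-like and Mmp17 in the Schwann-like column.

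9 of the 22 MMP genes lie within 427 kb of chromosome 9, at chr9:7272514-7699585 (GRCm38), 8 of them on the plus strand. In order of position they are Mmp13, Mmp12, Mmp1b, Mmp3, Mmp10, Mmp8, Mmp27, Mmp20 and Mmp7. Mmp1b is on the minus strand and overlaps the end of Mmp12 by 1.26 kb. Other genes of this stretch were not analysed here. Mmp20 had 0 UMIs in all cells, and Mmp1b, Mmp10 and Mmp7 had only 6, 52 and 25. Those with the most UMIs, Mmp3, Mmp12 and Mmp27, were not all read in the same class. Mmp3 (stromelysin 1) had 28471 UMIs in fibroblast-like and 45 in macrophage-like cells, whereas Mmp12 (macrophage elastase) had 35 and 1299, and Mmp27 had 36 and 829. Mmp13 (collagenase 3) was rare in both, with 48 and 136 UMIs, and most of its 582 UMIs lay in cells outside the 7 classes. Because these genes differ in the class that holds them, the 150 bases before the RefSeq start site (GRCm38.p6, plus strand) are shown for 4 of them, with the letters TGAGTCA or their reverse complement TGACTCA, the element bound by AP-1, in capitals.

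Mmp3, chr9:7445672-7445821: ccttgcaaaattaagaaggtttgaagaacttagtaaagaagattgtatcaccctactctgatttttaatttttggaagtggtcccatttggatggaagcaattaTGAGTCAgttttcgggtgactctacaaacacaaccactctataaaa
Mmp12, chr9:7347224-7347373: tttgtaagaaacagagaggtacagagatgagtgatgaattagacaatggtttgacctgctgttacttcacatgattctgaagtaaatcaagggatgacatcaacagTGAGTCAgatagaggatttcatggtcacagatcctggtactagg
Mmp13, chr9:7272364-7272513: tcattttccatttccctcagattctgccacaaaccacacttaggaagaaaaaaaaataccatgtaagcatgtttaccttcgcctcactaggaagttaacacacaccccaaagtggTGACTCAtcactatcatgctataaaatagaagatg
Mmp27, chr9:7571246-7571395: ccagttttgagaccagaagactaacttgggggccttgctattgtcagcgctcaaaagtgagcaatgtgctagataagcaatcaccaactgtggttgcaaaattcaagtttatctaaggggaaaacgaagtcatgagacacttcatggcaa

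The letters stood 46 bases before the start of Mmp3, 44 before that of Mmp12 and 35 before that of Mmp13, and were not in the window of Mmp27. RefSeq lists another, upstream start for Mmp12, whose window lacks them. They were also found before Mmp10, Mmp7 and Mmp1b, which makes 6 of the 9 genes in the group, and before 0 of the 26 other members with a RefSeq promoter (35 of 50 matched). The unmatched members all lie outside the group and were not searched. Among them are Mmp2, Mmp9, Mmp16, Mmp17, Adamts4 and Adamts5. Counted in the same way, 896 of 27025 genes (3.32%) held the letters on either strand in a promoter of that length, and 933 of all 32851 promoters did (2.84%). With the start shown for Mmp12, the letters were shared by Mmp3, read in fibroblast-like cells, and Mmp12, read in macrophage-like cells. Mmp27, also read in macrophage-like cells, lacked them. Mmp12 lacked them too when its upstream start was used. Whether the letters go with the class was not tested. A match is a description of the sequence, and binding was not measured.

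TIMPs. Timp2, which besides blocking MMPs helps Mmp14 to activate pro-Mmp2, was read in every class. In fibroblast-like cells it stood at 802, 737 and 771 CPM on day 4, then 939, 759 and 670 CPM on day 7, then 840, 773 and 931 CPM on day 10. Macrophage-like cells had 798, 716 and 776 CPM, then 825, 800 and 666 CPM, then 675, 903 and 816 CPM. The ranges of the 2 classes overlap almost fully. Neuron-like cells were lower in every library, at 199 to 293 CPM, and mesothelial-like cells higher in the median, at 1069 CPM (833 to 1918). In the fit across classes (edgeR's quasi-likelihood test with library as a block, Benjamini-Hochberg over all genes), Timp2 was 0.22 ± 0.11 (log2, SE) above the fibroblast-like level in macrophage-like cells (adjusted p = 0.0678, not called), and 2.10 below it in neuron-like cells (log2 difference -2.10 ± 0.12, adjusted p = 4.709e-21).

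Timp3, the inhibitor that stays bound to the matrix, separated the same classes. Fibroblast-like cells held a median of 374 CPM (294 to 511), Schwann-like cells 593 CPM (440 to 763) and mesothelial-like cells 1876 CPM (1631 to 2295), while macrophage-like cells had 4.91 CPM (2.29 to 8.55). The log2 difference from fibroblast-like cells was -6.13 ± 0.20 in macrophage-like and 2.28 ± 0.19 in mesothelial-like cells by edgeR's quasi-likelihood test (adjusted p = 8.289e-31 and 1.408e-13). The macrophage-like level of Timp3 was 1.21% of that in fibroblast-like cells, and the 16 fibroblast markers together stood in macrophage-like cells at 1.31% (0.593% to 2.35%) of their own level, so this reading does not exceed what the markers give.

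Timp1, a secreted inhibitor that many cells raise on stimulation, had 56.4 CPM in fibroblast-like cells (38.3 to 84.7), 126 CPM in mesothelial-like cells (103 to 168) and 1.36 CPM in macrophage-like cells. Timp4 had its highest level in astrocyte-like cells, at a median of 70.7 CPM (34.2 to 225 over 8 libraries) against at most 5.37 CPM in any library of the other classes, a log2 difference of 5.67 ± 0.32 from fibroblast-like cells (edgeR's quasi-likelihood test, adjusted p = 1.141e-20). Timp1, Timp3 and Timp4 each lie within a synapsin gene on the opposite strand (Timp1 in Syn1 at chrX:20870166-20874735, Timp3 in Syn3 at chr10:86300372-86349506, Timp4 in Syn2 at chr6:115241892-115252205), whereas Timp2 does not (chr11:118301069-118355740).

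Gelatinases. Mmp2, gelatinase A, had a median of 439 CPM in fibroblast-like cells (290 to 551) and 391 CPM in Schwann-like cells (285 to 467), which did not differ beyond their spread (log2 difference -0.28 ± 0.25, adjusted p = 0.326 by edgeR's quasi-likelihood test). Mesothelial-like cells had 133 CPM and the remaining classes medians of 26.8 CPM or less. The highest of these, in astrocyte-like cells, was higher with doublets kept. Mmp9, gelatinase B, was read in macrophage-like cells at 10.2, 0.131 and 2.62 CPM on day 4, then 0.544, 1.38 and 10.4 CPM on day 7, then 8.95, 25.0 and 2.94 CPM on day 10. These values span more than the days or genotypes do, and no order of either is seen in them. Macrophage-like cells were above fibroblast-like cells by 1.67 ± 0.44 on the log2 scale (edgeR's quasi-likelihood test, adjusted p = 0.000747). That difference rests on few cells, since 16 of the 6490 macrophage-like cells held 89.3% of the Mmp9 UMIs and the rest stood at 0.901 CPM, below the fibroblast-like median of 1.71 CPM.

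Membrane-type MMPs. Mmp14, which activates pro-Mmp2 at the cell surface, had its highest median in fibroblast-like cells, at 250, 251 and 262 CPM on day 4 and between 231 and 289 CPM in every library. Mesothelial-like cells came next at a median of 222 CPM (up to 272), and the 2 ranges overlap. Macrophage-like cells had 14.7 to 57.1 CPM (median 44.1), which is 16.8% of the fibroblast-like level (6.08% to 21.1% within libraries), against the 1.31% of the fibroblast markers. Mmp15 was highest in Schwann-like cells (122 CPM, 105 to 166), then skeletal muscle-like cells (42.0 CPM, 28.5 to 58.2) and astrocyte-like cells (31.5 CPM, 19.6 to 56.1), and lay at 1.60 CPM in fibroblast-like cells. Mmp17, a GPI-anchored member, was nearly restricted to Schwann-like cells, at 142 CPM (43.3 to 217) against 13.2 CPM in mesothelial-like and 1.01 CPM in fibroblast-like cells (log2 difference from fibroblast-like cells 7.01 ± 0.28, adjusted p = 3.17e-26, edgeR's quasi-likelihood test).

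Mmp24, a member known from the nervous system, was the one MMP at 20 CPM or more whose level was highest in neuron-like cells with no overlap: 15.2 to 29.4 CPM there, 1.89 to 9.64 CPM in skeletal muscle-like cells and at most 0.562 CPM in fibroblast-like cells. Its log2 difference between neuron-like and fibroblast-like cells was 6.18 ± 0.25 (edgeR's quasi-likelihood test, adjusted p = 2.609e-25). Mmp16 had a median of 47.9 CPM in neuron-like and 41.5 CPM in fibroblast-like cells. With TMM scaling the log2 difference, neuron-like minus fibroblast-like, had the opposite sign (-0.26 ± 0.17) and was not called (adjusted p = 0.169, edgeR's quasi-likelihood test).

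Stromelysin, elastase and other MMPs. Mmp3 had 44.2, 21.4 and 23.3 CPM in fibroblast-like cells on day 4, then 42.1, 29.96 and 21.7 CPM on day 7, then 30.4, 12.6 and 26.3 CPM on day 10, and a median of at most 1.36 CPM in every other class. Mmp23, an MMP without the usual hemopexin domain, was at 98.5 CPM in mesothelial-like cells (80.5 to 122) and 41.3 CPM in fibroblast-like cells (33.0 to 69.8). Mmp12 and Mmp27 were near 0 in fibroblast-like cells and at low levels in macrophage-like cells, with log2 differences of 8.57 ± 0.43 and 7.09 ± 0.35 (edgeR's quasi-likelihood test, adjusted p = 3.932e-21 and 4.315e-21). Both rest on few UMIs, 1299 and 829 in 6490 cells.

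ADAMTS and ADAMTS-like members. Adamts1 and Adamts5, which cleave aggrecan and versican, were the most read hyalectanases in fibroblast-like cells, at 208 CPM (140 to 292) and 206 CPM (166 to 293). They parted in other classes: Adamts5 reached 378 CPM in mesothelial-like, 219 CPM in skeletal muscle-like and 83.6 CPM in neuron-like cells, while Adamts1 had 220, 26.0 and 6.50 CPM there. Adamts4, the other classical aggrecanase, was highest in skeletal muscle-like cells, at 34.7 CPM (18.01 to 53.4) against 11.1 CPM in fibroblast-like cells (log2 difference 1.34 ± 0.15, adjusted p = 6.035e-11, edgeR's quasi-likelihood test). Adamts2, a procollagen N-proteinase, had 129 CPM in mesothelial-like cells (98.0 to 215), 73.7 CPM in fibroblast-like cells (53.3 to 109) and 3.19 CPM in Schwann-like cells.

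The remaining ADAMTS members at 20 CPM or more were Adamts9, highest in mesothelial-like cells at 42.3 CPM, Adamts12, highest in Schwann-like cells at 67.5 CPM, and the fibrillin-binding Adamts10, highest in fibroblast-like cells at 33.1 CPM. Adamts10 stayed at 9.43 CPM in macrophage-like cells, 25.7% of the fibroblast-like level. Adamtsl1 had 108 CPM in Schwann-like cells (65.4 to 164), 41.4 CPM in mesothelial-like cells (up to 66.2) and 23.2 CPM in fibroblast-like cells. Its Schwann-like and mesothelial-like ranges overlap. Adamtsl3 had 49.6 CPM in astrocyte-like and 33.7 CPM in fibroblast-like cells, whose ranges overlap.

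Counted over the members, the fits followed the same lines. In edgeR's quasi-likelihood test, 41 of the 50 members had enough counts, and against fibroblast-like cells 36 of the 41 were lower and 3 higher in macrophage-like cells, the 3 being Mmp12, Mmp27 and Mmp9. Most genes differ between such classes, since 83.5% of all genes tested were called in that contrast (39% higher and 44.5% lower), but the median log2 difference was -4.35 over the members and -0.11 over all genes. In neuron-like cells 31 members were lower and 4 higher (Mmp24, Mmp15, Adamts18 and Mmp12), with 78.9% of all genes called (37.4% higher and 41.5% lower) and medians of -2.25 and -0.05. The Mmp12 call has little behind it, since 32 of its 35 UMIs in neuron-like cells lay in Per1-/- day 4, and its median over the 9 libraries was 0 CPM. Skeletal muscle-like cells had 7 higher and 25 lower, where 71% of all genes were called (32.1% higher and 38.9% lower). Schwann-like cells had 8 and 22, where 67.2% were called (30.3% and 36.9%), and astrocyte-like cells 5 and 25, where 65.3% were called (31.5% and 33.9%). The median log2 differences of these 3 classes were -1.02, -1.36 and -1.03 over the members and -0.07, -0.08 and -0.04 over all genes. Mesothelial-like cells had 11 higher and 6 lower, where 32.6% of all genes were called (14.1% higher and 18.5% lower), and theirs was the one median above 0 among the 6 classes set against fibroblast-like cells (0.26, against -0.11 over all genes). No WT library is among the mesothelial-like sums. Macrophage-like against neuron-like cells gave 10 higher, among them Timp2 (2.33) and Mmp14 (1.10), and 23 lower, with 85.8% of all genes called (41.3% higher and 44.5% lower). On day 4 Mmp14 was lower in macrophage-like cells (21.5 to 44.1 CPM) than in neuron-like cells (52.5 to 60.6 CPM), and at the finer clustering its difference was 0.15 (edgeR's quasi-likelihood test, adjusted p = 0.422).

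Within the 9 fibroblast-like clusters, members differed again. Cluster 12, led by Angptl7, Il1rl1 and Gchfr, held Mmp3 at a median of 152 CPM (86.1 to 271 over 9 libraries) and Timp2 at 1697 CPM (1168 to 4181). Of the fibroblast-like cells, 59 had 200 or more Timp2 UMIs, 51 of them in cluster 12, with a maximum of 1559 in 1 cell, and together they held 2.62% of the Timp2 UMIs of the class. Cluster 0, whose leading genes Msx1, Hoxd13 and Hoxa13 are patterning factors of the limb, had Mmp3 at 54.1 CPM and Adamts3, a procollagen N-proteinase, at 15.7 CPM (10.9 to 32.5). Cluster 3 held almost only day 10 cells, and 80.65% of its cells came from Per2-/- day 10. It held 4475 of the 6671 fibroblast-like cells of that library. Its leading genes include Comp, Epyc and Hapln1, which are known from cartilage. Its mean log2 fold was 1.38 over the chondrocyte markers and 0.18 over the fibroblast markers, and the stricter naming of fibroblast-like clusters leaves it out. It followed with 36.9 CPM of Mmp3 and 10.3 CPM of Adamts3, and Adamts3 had at most 3.25 CPM in the other clusters. In clusters 1, 2, 6 and 13 Mmp3 was at 3.68 CPM or less.

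Cluster 6, led by Otor, Pmch and Tac1, was marked by Mmp16 at 158 CPM (93.5 to 192), Adamtsl1 at 69.3 CPM and Adamts19 at 16.6 CPM, and by the lowest Timp3, 169 CPM (107 to 270), against 531 CPM in cluster 1 and 544 CPM in cluster 2. Adamts19 was also read in cluster 13, led by Sv2b and Wnt4 (7.74 CPM), and in the cycling cluster 18 (4.75 CPM), and at 1.11 CPM or less elsewhere. Adamtsl2, known to bind fibrillin, peaked in cluster 13 at 12.3 CPM (3.74 to 32.6) and in cluster 1 at 8.28 CPM. Mmp14 was spread more evenly, with cluster medians of 197 to 338 CPM, and those of Mmp2 ran from 169 to 716 CPM. These are descriptions of clusters built from other genes and carry no test.

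**Figure D2:**
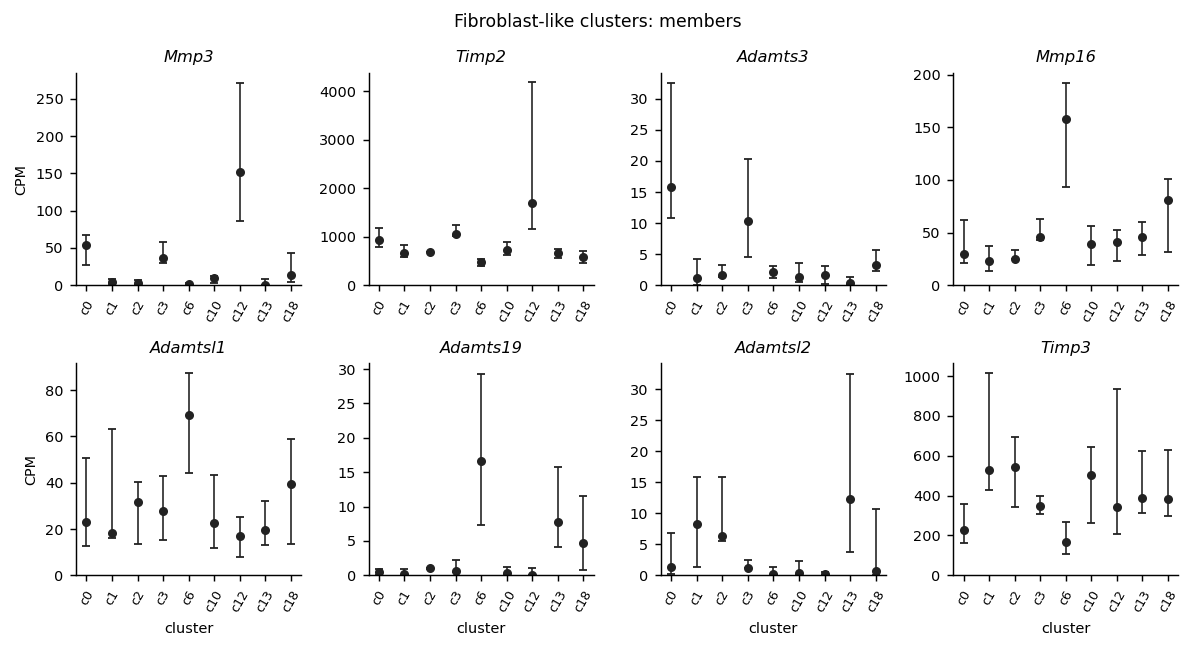
Median CPM (points) with the lowest and highest library (bars) of 8 members in the 9 fibroblast-like clusters; clusters with under 50 cells in a library leave that library out. Mmp3 and Timp2 peak in cluster 12 (152 and 1697 CPM), Mmp16, Adamtsl1 and Adamts19 in cluster 6, and Adamts3 in clusters 0 and 3.

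Days were compared within each class in a fit with day and genotype as additive terms, so that the 3 genotypes stand in as repeats of a day. Day 10 has another gene table than days 4 and 7, and many of its cells fell in clusters with few cells of the earlier days. These were 2 and 3 for fibroblast-like cells, 15 for macrophage-like cells and 19 for neuron-like cells. Clusters 0, 1 and 10, cluster 9, and clusters 4 and 8 held few day 10 cells in turn. Other clusters, such as 6, 12, 13 and 21, held cells of all 3 days. Day 10 and this processing cannot be told apart.

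In fibroblast-like cells 39 members were tested. From day 4 to day 7, 1 passed the test, Adamtsl4, a secreted protein of fibrillin microfibrils, where 2.2% of all genes were called (1% higher and 1.2% lower). It rose from 11.4, 9.37 and 10.1 CPM to 18.5, 15.4 and 15.9 CPM, and stood at 24.4, 20.8 and 26.0 CPM on day 10. The libraries of the 3 days do not overlap, and the log2 change from day 4 to day 7 was 0.67 ± 0.11 (edgeR's quasi-likelihood test, adjusted p = 0.0341). Within cluster 1 alone it went from 7.11, 5.65 and 6.69 CPM to 14.0, 15.1 and 12.5 CPM. The call was lost when any 1 library of days 4 and 7 was left out (adjusted p = 0.0636 to 0.181), without Per1-/- day 10 (0.0654), or without day 10 (0.0562), while the log2 change stayed between 0.62 and 0.75. DESeq2 called 6 of the 39 members in this comparison, where it called 8.64% of all genes, and edgeR with no count filter called 3 of 49, where it called 2.09%.

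The other members of fibroblast-like cells were not called between days 4 and 7, though 9 of the 39 had an unadjusted p under 0.05, as did 20.4% of all genes tested, and the median log2 change was 0.19, against 0.00 over all genes. Mmp2 had 306, 294 and 290 CPM on day 4, then 502, 480 and 341 CPM on day 7, then 524, 551 and 439 CPM on day 10, so that every day 4 library lay below every later one, with a log2 difference of 0.54 ± 0.13 (edgeR's quasi-likelihood test, adjusted p = 0.0796). The makeup of the class moved with the day: cluster 10, where Mmp2 had a median of 289 CPM, held 1477 of 4918 fibroblast-like cells of Per2-/- day 4 and 75 of 6324 of Per2-/- day 7, and cluster 0, where it had 489 CPM, held 1892 of 5225 of Per1-/- day 4 and 93 of 2868 of Per1-/- day 7. The 16 fibroblast markers summed to 24650, 24770 and 20940 CPM in these cells on day 4 and to 33330, 39100 and 32430 CPM on day 7. The part of either in the day values of the fibroblast-like cells was not tested. Adamts5 had 206, 196 and 166 CPM, then 241, 290 and 186 CPM, with overlap (log2 difference 0.30, adjusted p = 0.174 in the same edgeR fit). None of the 4 TIMPs had an unadjusted p under 0.05 between days 4 and 7. From day 7 to day 10, 0 of the 39 members passed edgeR's test where 1.12% of all genes did (0.936% higher and 0.187% lower). 4 had an unadjusted p under 0.05, as did 10.1% of all genes, and DESeq2 called 3, where it called 2.39% of all genes.

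**Figure D3:**
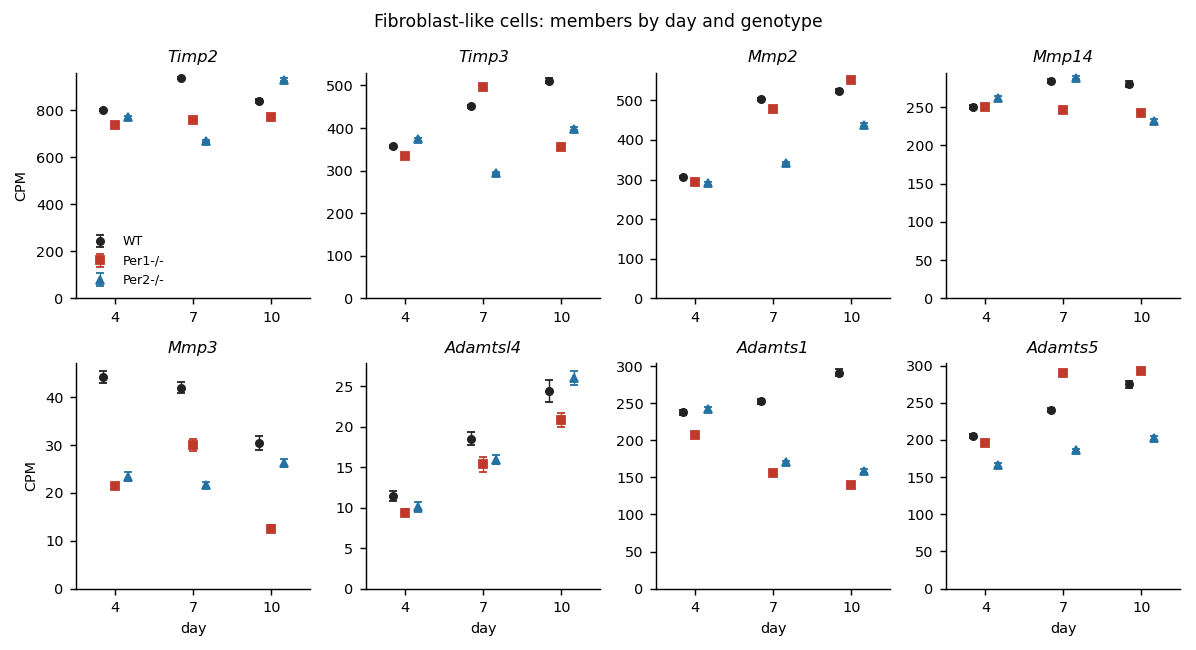
CPM of 8 members in fibroblast-like cells by day (x axis) and genotype (symbols), with exact Poisson 95% intervals that cover counting error only; each point is 1 library. Adamtsl4 is higher on each later day in all 3 genotypes (9.37 to 11.4 CPM on day 4, 20.8 to 26.0 CPM on day 10), and Mmp2 is lowest on day 4, while Timp2 and Mmp14 keep to 670 to 939 and 231 to 289 CPM.

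In macrophage-like cells 26 members were tested, and 0 passed between days 4 and 7, where 0.401% of all genes did by edgeR's quasi-likelihood test (0.259% higher and 0.142% lower). 6 had an unadjusted p under 0.05, as did 19.5% of all genes, and DESeq2 called 1, where it called 3.8% of all genes. The median log2 difference was -0.67 over these members, against -0.01 over all genes. Members of this count include several whose macrophage-like level was near the 1.31% at which the fibroblast markers stood, such as Timp3 (1.21%), Adamts2 (1.15%) and Adamts5 (1.5%). Those markers summed to 536, 517 and 275 CPM in macrophage-like cells on day 4 and to 364, 232 and 575 CPM on day 7, and their part in the median was not tested. Mmp12, which degrades elastin, had 10.8, 41.5 and 30.2 CPM on day 4, then 15.1, 1.76 and 2.82 CPM on day 7, then 11.7, 2.15 and 1.57 CPM on day 10. The mutant libraries were high on day 4 and low later, and the WT libraries stayed between 10.8 and 15.1 CPM, so the days overlap. These levels rest on few cells, which are counted by library below. The log2 difference was -2.85 ± 0.82 (edgeR's quasi-likelihood test, adjusted p = 0.131), and a call was made without WT day 4 (-3.90, adjusted p = 0.00604). Mmp27 had 1.89, 3.34 and 3.10 CPM, then 4.43, 5.28 and 4.95 CPM, then 5.85, 9.33 and 3.30 CPM, with every day 7 library above every day 4 library (log2 difference 0.91 ± 0.33, adjusted p = 0.191 in the same edgeR fit). From day 7 to day 10, 0 of 26 passed, where 1.05% of all genes did (0.896% higher and 0.149% lower), with 1 at an unadjusted p under 0.05, against 7.93% of all genes, and 0 by DESeq2.

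**Figure D4:**
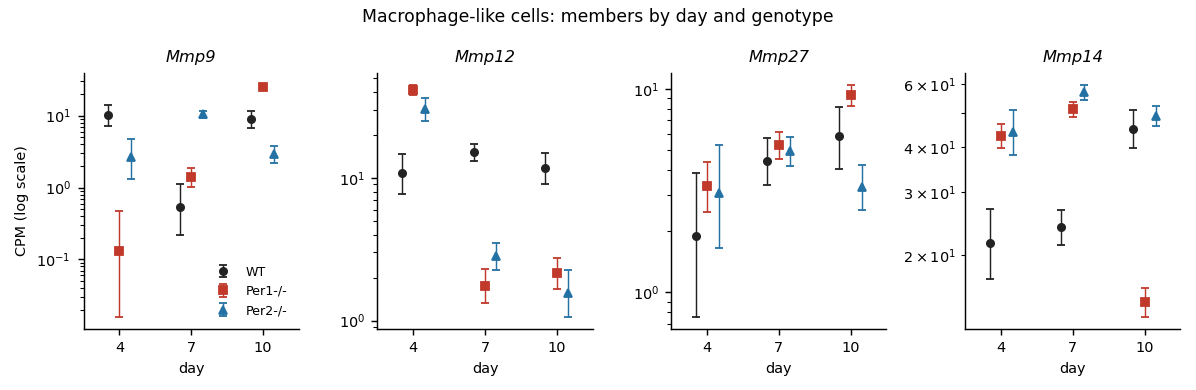
CPM (log scale) of Mmp9, Mmp12, Mmp27 and Mmp14 in macrophage-like cells by day and genotype, with exact Poisson 95% intervals for counting error; each point is 1 library. Mmp9 scatters from 0.131 to 25.0 CPM with no order by day, Mmp12 is above 30 CPM in the Per1-/- and Per2-/- libraries of day 4 only, and Mmp27 stays between 1.89 and 9.33 CPM.

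Mmp9 and Mmp12 UMIs were held by few cells. The 16 macrophage-like cells with most of the 1293 Mmp9 UMIs had 10 or more each. The libraries of day 4 had 2, 0 and 1 such cells, those of day 7 had 0, 1 and 6, and those of day 10 had 2, 3 and 1. These cells also had Acp5 at 812 CPM (1.08 CPM in the other macrophage-like cells) and Ctsk at 1800 CPM (6.61 CPM), the tartrate-resistant phosphatase and cathepsin K known from bone-resorbing osteoclasts, and less Mrc1, the mannose receptor (537 against 1630 CPM). For Mmp12, 25 cells with 10 or more UMIs held 73.4% of 1299 UMIs. They numbered 1, 10 and 3 on day 4, then 3, 0 and 2 on day 7, then 2, 3 and 1 on day 10. They had more Il1rn (171 against 17.1 CPM) and Ccl9 (897 against 113 CPM). No cell reached 10 UMIs of both. Mmp27 was spread wider, with 22% of its UMIs in the top 1% of cells, where Mmp9 had 97% and Mmp12 90.6%. Since the cells were picked by the protease itself, these are descriptions without a test. Their median depth was 28770 UMIs for Mmp9 and 34830 for Mmp12, against about 21860 and 21850 in the rest.

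Whether days changed the classes unequally was tested by the interaction of class and day. From day 4 to day 7, 1 of 42 members passed, Adamtsl5, a secreted microfibril-binding protein, where 0.825% of all genes were called (0.449% higher and 0.376% lower). In macrophage-like cells it had 10.8, 7.86 and 11.0 CPM on day 4, then 5.52, 2.92 and 2.16 CPM on day 7, then 2.41, 2.47 and 1.05 CPM on day 10. In fibroblast-like cells it had 11.8, 8.998 and 9.24 CPM on day 4 and 12.3, 10.8 and 7.17 CPM on day 7. In macrophage-like cells every day 4 library lay above every later one, while days 4 and 7 overlap in fibroblast-like cells. The change was lower in macrophage-like than in fibroblast-like cells by a log2 difference of -1.52 ± 0.25 (edgeR's quasi-likelihood test, adjusted p = 0.0339), and was not called at the finer clustering (adjusted p = 0.0804) or without day 10 (0.0575). It was also not called without Per1-/- day 4 (0.0771), WT day 7 (0.0845), Per1-/- day 7 (0.195), Per2-/- day 7 (0.175) or WT day 10 (0.0691). Other settings called more members, with 2 by DESeq2 (2.77% of all genes), 2 with doublets kept (0.897%) and 8 without Per2-/- day 4 (5.16%). From day 7 to day 10, 0 of 42 passed, where 0.0425% of all genes did (0.0121% higher and 0.0303% lower), with 7 at an unadjusted p under 0.05, against 6.24% of all genes, and 0 by DESeq2.

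Neuron-like cells showed the most day calls. Between days 4 and 7, 3 of 35 members tested rose and 8 fell by edgeR's quasi-likelihood test, where 19.7% of all genes were called (10.6% higher and 9.15% lower), and the median log2 change was -0.15 against -0.01 over all genes. Those that rose were Mmp24, Timp4 and Adamts19, and those that fell were Mmp14, Mmp11 and Mmp16 among the MMPs, Adamts2, Adamts4, Adamts6 and Adamts7 among the ADAMTS proteases, and Adamtsl5. Adamts2 stood in neuron-like cells at 3.06% (0.451% to 7.44%) of its fibroblast-like level, near the 3.24% of the 16 fibroblast markers. The part of fibroblast RNA in its fall was not tested. Between days 7 and 10, 4 fell (Mmp14, Adamts4, Adamts5 and Adamts6) and 0 rose, where 10.4% of all genes were called (6.01% higher and 4.37% lower).

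Mmp14 stood at 52.5, 60.6 and 52.9 CPM on day 4, then 23.0, 26.1 and 22.4 CPM on day 7, then 7.41, 17.8 and 9.94 CPM on day 10. The 3 days do not overlap. The log2 change was -1.20 ± 0.14 from day 4 to day 7 and -0.97 ± 0.17 from day 7 to day 10 (edgeR's quasi-likelihood test, adjusted p = 0.00031 and 0.00659). Within cluster 4 it went from 54.8, 55.7 and 50.01 CPM to 19.1, 24.1 and 17.2 CPM, and within cluster 8 from 49.9, 69.4 and 58.1 CPM to 27.3, 30.5 and 28.1 CPM. The 16 fibroblast markers, none of them at 0, also summed to less in neuron-like cells as days passed: 2398, 2302 and 1468 CPM on day 4, then 1011, 1043 and 1091 CPM on day 7, then 622, 845 and 964 CPM on day 10. Relative to fibroblast-like cells, Mmp14 was at 8.1% (2.64% to 24.2%) and the marker list at 3.24% (1.67% to 9.73%), and the part of these transcripts in the fall was not tested.

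Mmp24 moved the other way. It had 15.8, 17.7 and 15.2 CPM on day 4, then 24.8, 23.2 and 24.2 CPM on day 7, then 28.2, 25.7 and 29.4 CPM on day 10, with no overlap between days 4 and 7 and a log2 change of 0.57 ± 0.12 (edgeR's quasi-likelihood test, adjusted p = 0.00591). In cluster 8 it went from 9.54, 10.1 and 10.0 CPM to 22.1, 19.9 and 20.4 CPM, and in cluster 4 from 21.2, 22.1 and 18.3 CPM to 27.4, 24.5 and 26.0 CPM. Fibroblast-like cells had at most 0.562 CPM of it.

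Adamts4 fell from 11.4, 13.0 and 10.8 CPM to 6.50, 7.88 and 6.83 CPM and on to 3.99, 5.78 and 2.92 CPM, with log2 changes of -0.71 ± 0.16 and -0.74 ± 0.21 (adjusted p = 0.0113 and 0.0454, edgeR's quasi-likelihood test). Adamts5 kept 103, 99.4 and 89.3 CPM on day 4 and 83.6, 97.5 and 72.1 CPM on day 7 and was at 63.5, 71.5 and 37.3 CPM on day 10 (log2 change from day 7 -0.51 ± 0.13, adjusted p = 0.032, edgeR's quasi-likelihood test). Mmp11, stromelysin 3, and Mmp16 moved less, by -0.42 and -0.40 on the log2 scale. Timp4 and Adamts19 rose by 1.39 and 1.07 from levels of 0.330 to 0.778 and 0.809 to 0.9999 CPM, which rest on 11 to 24 and 18 to 38 UMIs per library.

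The neuron-like calls depend on which cells carry the name. With finer clusters 3 members passed between days 4 and 7, of which 2 were among the 11, Mmp24 and Mmp14 were no longer called (0.19 and -0.35), and Mmp16, Adamtsl5 and Adamts2 had the opposite sign. Leaving out WT day 4 left 2 calls, WT day 7 left 3, Per1-/- day 7 and Per2-/- day 7 left 4 each, Per2-/- day 4 gave 6 and Per1-/- day 4 gave 7. For days 7 to 10 the finer clusters left 1 call, and Mmp14 was no longer called there and had the opposite sign (0.0078). Leaving out WT day 7 or Per2-/- day 7 left 1 call each, Per1-/- day 7 left 2 and Per2-/- day 10 left 0. Shares of all genes called in these fits are not given here. The counts thus do not tell these members from other genes.

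**Figure D5:**
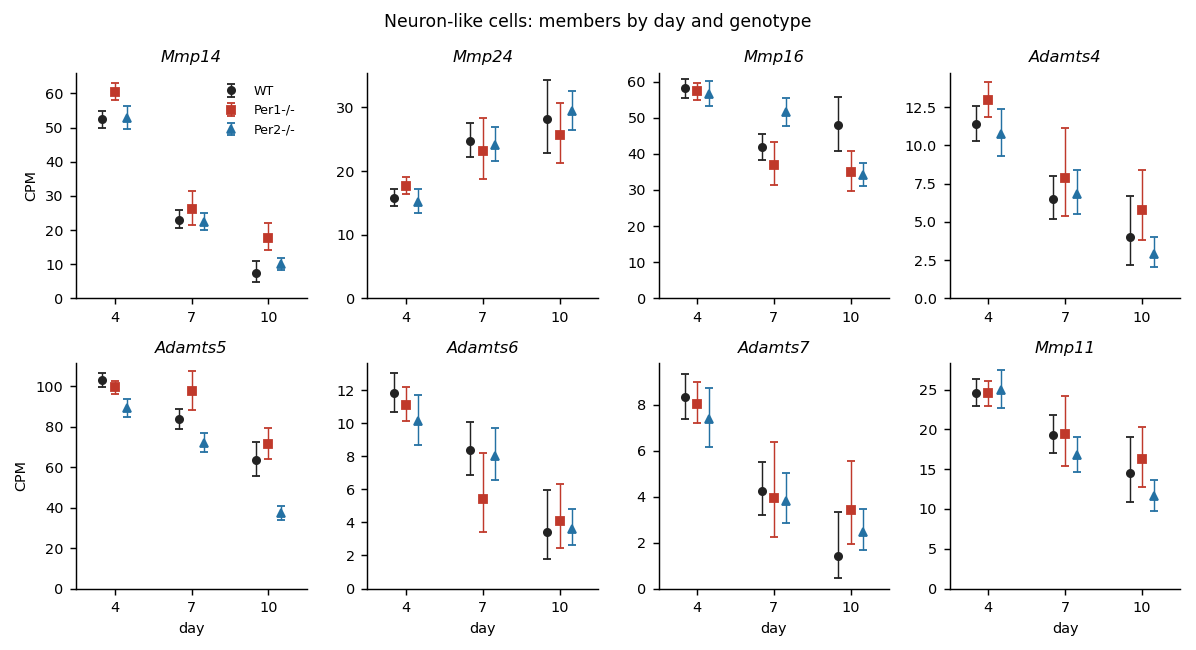
CPM of 8 members in neuron-like cells by day and genotype, with exact Poisson 95% intervals for counting error; each point is 1 library. Mmp14 falls from 52.5 to 60.6 CPM on day 4 to 7.41 to 17.8 CPM on day 10, and Mmp24 goes from 15.2 to 17.7 CPM to 25.7 to 29.4 CPM.

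Genotypes were compared in the same fits, with the 3 days as repeats of a genotype. 0 members passed edgeR's quasi-likelihood test between Per1-/- or Per2-/- and WT in fibroblast-like, macrophage-like or neuron-like cells. The shares of all genes called were 0% and 0% in fibroblast-like cells, 0.0157% and 0% in macrophage-like cells and 0% and 0.00692% in neuron-like cells, for Per1-/- and Per2-/-. The 0.0157% split into 0.00786% higher and 0.00786% lower, and the 0.00692% was higher. An unadjusted p under 0.05 was reached by 4 and 5 of 39 members in fibroblast-like cells, 2 and 0 of 26 in macrophage-like cells and 2 and 2 of 35 in neuron-like cells, where it was reached by 8.7% and 7.99%, 7.3% and 15.2%, and 4.44% and 5.31% of all genes. DESeq2 called 1 member, for Per1-/- in fibroblast-like cells, where it called 1.3% of all genes, and 0 in the other 5 comparisons. The member with the smallest p for Per1-/- in fibroblast-like cells, named after its values were seen, was Adamts1, with 238, 253 and 292 CPM in WT on days 4, 7 and 10 and 208, 157 and 140 CPM in Per1-/-. The genotypes do not overlap, and the log2 difference was -0.60 ± 0.15 (adjusted p = 0.428, edgeR's quasi-likelihood test). Per2-/- had 242, 171 and 159 CPM. Mmp3 was lower than in WT on each day in both Per1-/- and Per2-/-, and for Per1-/- the log2 difference was -0.84 ± 0.26 (adjusted p = 0.482, same test). The genotypes' fibroblast-like cells lay in different clusters: on day 7 cluster 0, where Mmp3 is high, held 1764 of 4981 WT and 93 of 2868 Per1-/- cells, and on day 10 cluster 2, where it is low, held 734 of 2308 WT and 3792 of 5151 Per1-/- cells. The part of this makeup in the values of Mmp3 and Adamts1 was not tested. Timp2 in macrophage-like cells had 798, 825 and 675 CPM in WT and 716, 800 and 903 CPM in Per1-/-, which overlap. The sex makeup moves with Per1-/- days 7 and 10, and its part in these values was not tested.

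Genes that act around these proteases were taken from 5 lists. Of 24 tested activators, inhibitors and receptors, 1 rose in fibroblast-like cells from day 4 to day 7, the proprotein convertase Pcsk5 (log2 change 1.88 ± 0.20), and 0 fell, where 2.2% of all genes were called (1% higher and 1.2% lower). 3 of 12 other matrix proteases rose there, namely Prss35 (1.78), the dipeptidyl peptidase Dpp4 (1.75) and Htra3 (1.41), with 1 of 11 ADAM genes, Adam33 (1.03), and 0 of 12 hyalectan genes and 0 of 7 AP-1 subunits. In macrophage-like cells 1 of 10 ADAM genes rose, Adam22 (1.96 ± 0.25, adjusted p = 0.0276 by edgeR's quasi-likelihood test), and 0 genes of the other 4 lists passed, where 0.401% of all genes were called.

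In neuron-like cells, where 19.7% of all genes were called from day 4 to day 7, the activation and control list had 4 lower (Thbs2, Itgav, Serpine2 and Cd44) and 1 higher of 18 tested, the testican Spock2 (1.40 ± 0.23). Other matrix proteases had 4 lower (Bmp1, Htra1, Mme and Prss23) and 1 higher of 11, Dpp4 (1.85). Hyalectan substrates and partners had 2 lower of 10, the versican gene Vcan (-0.65) and the tenascin gene Tnc (-1.62), and 1 higher, the neurocan gene Ncan (0.47). Adam17 and Junb fell and Adam22 rose. The fibroblast markers also summed to less in neuron-like cells over these days, with the values given beside Mmp14 (2398, 2302 and 1468 CPM, then 1011, 1043 and 1091 CPM), and their part in these calls was not tested. Versican, a substrate of Adamts1, Adamts4 and Adamts5, fell again from day 7 to day 10 (-0.47), with Thbs2 (-1.02) and Bmp1 (-0.50), where 10.4% of all genes were called. No gene of the 5 lists passed for either genotype.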

How the data were processed

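Droplet libraries (Chromium 3′ chemistry) were made from 9 cultures, 1 per genotype and day. The authors aligned reads to mm10 and deposited filtered UMI counts per gene and cell; the submitters' notes name Cell Ranger 7.1, whereas the file headers name 4.0.0 for days 4 and 7 and 6.0.0 for day 10, whose gene table also differs. The counts were used as deposited. Cells with at least 3000 UMIs and at most 20% mitochondrial UMIs were kept (the study's limits). The highest Scrublet ranks were marked as doublets (0.8% per 1000 barcodes, 8442 of 81989 cells). All 81989 cells were clustered with scanpy 1.11.5 (2000 variable genes, 30 components, 15 neighbours, Leiden resolution 1), and the doublets were then left out of sums and levels. The setting with doublets kept put them back into the sums of the same clusters. Members, the gene lists and mitochondrial genes stayed out of the clustering. Clusters were named from marker lists, and 31 clusters gave 21 named ones. A cluster with over 90% of its cells from 1 library stayed unnamed. Which clusters count as fibroblast-like was settled after their markers were seen, with a stricter rule as an alternative.

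UMIs were summed per library and class (at least 50 cells) and tested in edgeR 4.0.16 (R 4.3.3) with TMM, filterByExpr, the quasi-likelihood test and Benjamini-Hochberg adjustment over all genes at 0.05, two-sided. Days and genotypes were additive terms, so differences within 1 day were not tested. The p-values of these fits rest on what the additive terms leave over. That mixes the spread between cultures with day changes that differ by genotype. Class contrasts had the library as a block. CPM intervals are exact Poisson at 95% and, like those of the shares, cover counting error only. Genes are described by name where they reached 20 CPM in a class, passed a test of day, genotype or class by day, or belong to a protease role group. Alternatives were DESeq2 1.42.0, its size factors, no count filter, at least 6000 UMIs per cell, doublets kept, Leiden resolution 2, without day 10, and each library left out. The fits were also run on counts simulated from their own terms, with known changes. For days and genotypes those terms are additive, so day changes that differ by genotype were not checked. The members and lists were chosen with earlier results of these data known. Mmp1a was not analysed here.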

Additional observations from a re-analysis of the deposited data

Results flagged for a closer look

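The change of Adamtsl5 from day 4 to day 7 differed between macrophage-like and fibroblast-like cells by the interaction of class and day, with a log2 difference of -1.52 (edgeR's quasi-likelihood test, adjusted p = 0.0339). Macrophage-like cells were lower on day 7 than on day 4 in all 3 genotypes. The fibroblast markers summed to 275 to 536 CPM in macrophage-like cells on day 4 and to 232 to 575 CPM on day 7. The part of fibroblast RNA and of the cells' makeup in the difference was not tested.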

How the results depend on the processing

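No paired analysis by replicate number was possible because the labels give no shared replicate numbers; the class contrasts had the library as a block, and days and genotypes entered as additive terms. The class contrasts kept their counts within 1.5 times the reported ones under every alternative run, with 39 members called between macrophage-like and fibroblast-like cells in all 9 fits that left out 1 library, 33 to 36 for neuron-like, 30 to 33 for skeletal muscle-like, 29 to 30 for Schwann-like, 28 to 31 for astrocyte-like and 13 to 17 for mesothelial-like against fibroblast-like cells, and 31 to 33 for macrophage-like against neuron-like cells. Counts of members called by day were less stable, and the cause was not tested. The counts of this paragraph are given without the shares of all genes called. They thus do not tell the members from other genes. In fibroblast-like cells, the count from day 4 to day 7 was 3 with no filter, 6 by DESeq2, 0 without day 10 and 0 to 1 with 1 library left out, and from day 7 to day 10 it was 3 by DESeq2, 1 under the stricter naming of fibroblast-like clusters and 0 to 0 with 1 library left out. In macrophage-like cells, the count from day 4 to day 7 was 2 with no filter, 1 by DESeq2 and 0 to 2 with 1 library left out (2 without WT day 4). In neuron-like cells, the count from day 4 to day 7 was 6 by DESeq2, 3 at Leiden resolution 2 and 2 to 12 with 1 library left out, and from day 7 to day 10 it was 1 at resolution 2 and 0 to 4 with 1 library left out. For the class by day interaction from day 4 to day 7, DESeq2 gave 2, keeping doublets 2, resolution 2 gave 0, leaving out day 10 gave 0, and leaving out 1 library gave 0 to 8 (8 without Per2-/- day 4). For Per1-/- in fibroblast-like cells DESeq2 gave 1 and leaving out 1 library 0 to 1 (1 without Per1-/- day 4). For macrophage-like cells, leaving out 1 library gave 0 to 1 for Per1-/- (1, Mmp12, without WT day 4) and 0 to 2 for Per2-/- (2 without Per2-/- day 4). At Leiden resolution 2 the log2 value turned sign for Mmp16 (0.046), Adamtsl5 (0.42) and Adamts2 (0.18) in neuron-like cells from day 4 to day 7, Mmp14 (0.0078) from day 7 to day 10, and Adamts1 between macrophage-like and neuron-like cells (-0.33). Among class medians of members at 20 CPM or more, 10 moved by more than the SD over libraries at Leiden resolution 2: Mmp14 in fibroblast-like, neuron-like (23.0 to 63.5 CPM) and skeletal muscle-like cells, Timp3 (21.4 to 42.6 CPM), Mmp16 and Adamts5 in neuron-like cells, and Timp3, Mmp2, Adamts9 and Adamts1 in skeletal muscle-like cells. With doublets kept, 3 moved, all in astrocyte-like cells: Mmp2 (26.8 to 68.9 CPM), Adamts5 (26.7 to 60.7 CPM) and Mmp16 (22.4 to 35.7 CPM). Levels near 1 CPM or below rest on few UMIs, and no spread within a condition was measured, since none has a second library.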
